A study of Mus musculus with 23 samples.

Results

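Egfr, Fgfr3, Spry4, Dusp6 and Etv5 are 5 genes of epidermal growth factor (EGF) and fibroblast growth factor (FGF) signalling, chosen by name because they are receptors for these factors or genes that the signal itself switches on. They are 5 of 9363 genes with a row in the table of HA libraries and 1 of 4898 in the table of FT libraries, where only Dusp6 had a row and Egfr, Fgfr3, Spry4 and Etv5 had none. The series measured RNA in the spinal cord of mice after severe crush injury (SCI) at thoracic level 10. In these young adult mGFAP-Cre-RiboTag mice a Cre recombinase driven by a mouse Gfap promoter puts a hemagglutinin tag on ribosomes, so that RNA bound to tagged ribosomes can be precipitated (HA) and the RNA left behind, the flow-through (FT), can be sequenced separately. The central 3 mm of the lesion was taken 14 days after injury.

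Every group carried the tag and the crush, and the genotype label of every library is wild type. The first treatment was SCI with a hydrogel depot holding growth factors, placed 2 days after injury (3 HA and 5 FT libraries). The second was SCI with a hydrogel labelled CT, an abbreviation the labels do not explain, placed on the same day (3 HA and 4 FT libraries). The third was SCI only (4 HA and 4 FT libraries). By the title of the series the depot carried FGF and EGF, but headers in the deposited tables call that group BDNF_NT3Gel and the CT group EmGel, and which holds was not settled here. If the depot held FGF and EGF, the genes described here are the receptors of those proteins and their direct feedback. The tag marks cells in which the Gfap promoter was active, also earlier in life. Libraries are called by the number in their title. Numbers of the hydrogel libraries run from 1645 to 1762 and those of SCI only from 9596 to 9935. What the numbering follows is not in the labels. A comparison with SCI only therefore cannot tell the hydrogel apart from anything else that differs between these number ranges.

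Egfr encodes the receptor tyrosine kinase for EGF, TGF-alpha and HB-EGF, and Fgfr3 encodes an FGF receptor that astrocytes and their precursors are known to carry. Both receptors signal through Ras and the kinases RAF, MEK and ERK. Active ERK induces its own brakes: Spry4 encodes a Sprouty protein that dampens Ras and RAF activation, and Dusp6 encodes a phosphatase that removes phosphate from ERK in the cytoplasm. Etv5 encodes a transcription factor of the ETS family that FGF signalling switches on. In the injured spinal cord, EGF receptor signalling is known to act on astrocytes as they become reactive, and FGF on their proliferation.

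The promoters of Egfr and Dusp6 are shown because the results turn on these genes, Egfr between treatments and Dusp6 between fractions. Each stretch covers 250 bases before to 50 after the RefSeq start (GRCm38.p6, plus strand), chr11:16751953-16752252 for Egfr and chr10:99262981-99263280 for Dusp6. Capitals mark CGGAA on either strand, the core letters that ETS factors such as Etv5 bind, a motif chosen after the sequences were seen.
Egfr: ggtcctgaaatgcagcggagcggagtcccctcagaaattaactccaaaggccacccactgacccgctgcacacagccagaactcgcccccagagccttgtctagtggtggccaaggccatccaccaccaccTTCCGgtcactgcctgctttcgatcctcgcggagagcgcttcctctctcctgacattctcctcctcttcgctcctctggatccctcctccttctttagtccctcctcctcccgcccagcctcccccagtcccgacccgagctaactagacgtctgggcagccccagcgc
Dusp6: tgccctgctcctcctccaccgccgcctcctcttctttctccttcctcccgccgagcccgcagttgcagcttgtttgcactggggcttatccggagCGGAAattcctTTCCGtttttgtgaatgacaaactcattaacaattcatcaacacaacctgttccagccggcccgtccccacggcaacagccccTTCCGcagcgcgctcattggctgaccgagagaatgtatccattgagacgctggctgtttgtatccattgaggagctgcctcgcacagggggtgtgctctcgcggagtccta
The Egfr stretch held these letters once, at position -119 from the start, and the Dusp6 stretch 3 times, at -155, -144 and -61. The same letters occur at least 1 time in 29.9% of 32851 RefSeq promoter windows of this length, a share that is no yardstick for 3 matches. A longer core, CCGGAA, had 1 match in the Egfr stretch and 0 in that of Dusp6, and occurs in 14.9% of windows. Other motifs were searched too and are not described. The windows of Fgfr3 and Etv5 had no match, which says only that the letters are not there. These matches are a description, and no binding was measured.

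Every count belongs to 1 listed transcript per gene. The Egfr transcript has 28 exons and 10208 bases, that of Fgfr3 (chromosome 5, 33721674 to 33737068, plus strand, mm10) has 18 exons and 4150 bases, and that of Dusp6 has 3 exons and 2796 bases. The Etv5 transcript (chromosome 16, 22381309 to 22439719, minus strand) has 13 exons and 3975 bases. Spry4 has 2 exons and 4755 bases. Egfr overlaps the antisense gene Egfros, Fgfr3 overlaps G630022F23Rik on the other strand, and Spry4 overlaps 2 small RNA genes. The strand setting of the counting is not given, so reads of these partners cannot be told apart from the members' reads.

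Levels are given as reads and as CPM, reads relative to library size after TMM scaling, which sets libraries level by their typical gene. Total counts ran from 7940025 to 11279512 with growth factors, from 10591097 to 12604450 with hydrogel CT and from 18497909 to 24337017 with SCI only in HA. Loci that collect ribosomal RNA reads, 6 in number, took 79.8% to 91.9%, 48.2% to 68.4% and 93.5% to 96.6% of them. Protein-coding genes other than Lars2 held 9.14% ± 5.47 (SD, n = 3), 34.3% ± 10.4 (n = 3) and 2.08% ± 1.32 (n = 4). One read was thus worth 0.0609 to 0.255 CPM with growth factors, 0.0129 to 0.0225 CPM with hydrogel CT and 0.0748 to 0.279 CPM with SCI only. The hydrogel CT libraries could therefore show levels that the others could not, and the part of this difference in the results below was not tested. The summed level of astrocyte markers in HA, with 13 of 14 listed and none at 0, was 3450 to 4550 CPM, 2880 to 5220 CPM and 2170 to 3080 CPM. In FT, total counts were 40432 to 145365 with growth factors, 19607 to 85234 with hydrogel CT and 2241603 to 5432938 with SCI only.

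Egfr was the member with the clearest pattern, low in HA with growth factors, high with hydrogel CT and low with SCI only. It had 8, 0 and 2 reads in the growth factor libraries (1685, 1687 and 1732), against 207, 152 and 675 reads in the hydrogel CT libraries (1724, 1759 and 1762). The SCI only libraries 9596, 9843, 9874 and 9935 had 12, 2, 1 and 11 reads. Every hydrogel CT library thus held more Egfr reads than any library of the other treatments. The hydrogel CT libraries also held the most protein-coding counts, and the share of all genes with this ordering in reads was not counted. The hydrogel CT group gave 1034 of all 1070 HA reads of Egfr. In bulk samples like these, fewer tagged cells with a transcript and less of it per cell cannot be told apart.

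In CPM, Egfr stood at 0.487, 0 and 0.172 with growth factors, against 4.67, 3.17 and 8.68 with hydrogel CT. With SCI only it stood at 0.898, 0.386, 0.115 and 3.07 CPM, so that library 9935 came close to the lowest hydrogel CT library. The group means were 0.22 ± 0.247 CPM (SD, n = 3), 5.51 ± 2.85 CPM (n = 3) and 1.12 ± 1.34 CPM (n = 4). For the growth factor library without a read, a count of 3 would have been 0.765 CPM, below every hydrogel CT library.

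Growth factors against hydrogel CT gave a log2 difference of -4.44 for Egfr (SE 1.58, 95% interval -7.76 to -1.12). Its adjusted p was 0.267 by edgeR's quasi-likelihood test over all genes, with an unadjusted p of 0.0116, so it did not pass the threshold of 0.05. The same comparison by DESeq2, which called 4.4% of tested genes, gave an adjusted p of 0.0293. In the authors' deposited table, whose fold change runs as hydrogel CT over growth factors, Egfr has a log2 value of 4.50 with a false discovery rate of 0.103. Of the 3 members tested in HA, none was called between growth factors and hydrogel CT (1 of them had an unadjusted p under 0.05), where edgeR called 6 of 6654 genes (0.0902%) and 886 had an unadjusted p under 0.05. Egfr was the 1 tested member whose libraries did not overlap in CPM, against 18.4% of all tested genes. Egfr passed the filter on low counts through the hydrogel CT libraries, the group in which it was high. In CPM of all counts without TMM these stood at 14.4 to 53.6, against at most 0.761 with growth factors and 0.603 with SCI only. Fitted with growth factors and SCI only, Egfr could not be tested. How many tested genes entered through hydrogel CT alone was not counted, so that share is no even yardstick for Egfr. Leaving out 1 library at a time gave Egfr differences of -5.59 to -3.96, none of them past the threshold.

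Hydrogel CT against SCI only gave a log2 difference of 2.35 for Egfr (SE 1.30, 95% interval -0.38 to 5.08, edgeR adjusted p = 0.467). Its libraries again did not overlap, as for 18.9% of tested genes, and no member was called, against 0.195% of tested genes. Here too Egfr had entered the test through the hydrogel CT libraries. Growth factors against SCI only gave -2.09 (SE 1.43, 95% interval -5.09 to 0.91, edgeR adjusted p = 0.420). Here the Egfr libraries overlapped, as did those of the other tested members, while 14.2% of tested genes did not overlap. No member was called there either, against 0.436% of tested genes. These comparisons share libraries, and their values for Egfr are not independent of each other.

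**Figure D1:**
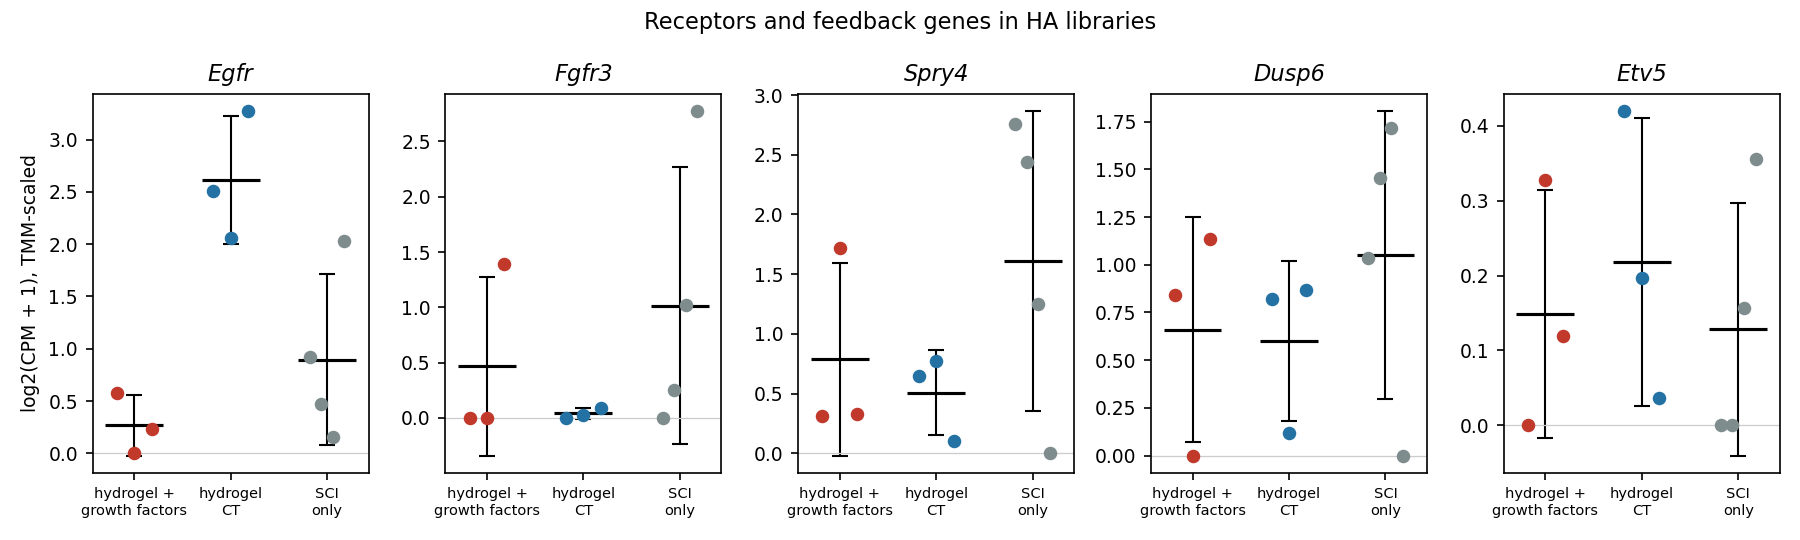
Each dot is 1 HA library and the vertical axis is log2(CPM + 1) after TMM scaling, on a scale of its own per gene. Bars give the mean and SD on that log scale for hydrogel with growth factors (n = 3), hydrogel CT (n = 3) and SCI only (n = 4). In the Egfr panel the hydrogel CT dots lie above all others, and in the other panels the groups overlap.

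The direction of both Egfr differences that involve hydrogel CT was the same on all 3 scales. In CPM of all counts without TMM it averaged 0.313 ± 0.398 with growth factors and 29 ± 21.4 with hydrogel CT (SD, n = 3 each), against 0.31 ± 0.278 with SCI only (n = 4). In CPM of the counts outside the 6 ribosomal RNA loci, again without TMM, it averaged 1.63 ± 1.94, 67.8 ± 32.8 and 6.9 ± 6.26. The mean with growth factors was 0.0399 of that with hydrogel CT in CPM, 0.024 outside the ribosomal RNA loci and 0.0108 relative to all counts. The hydrogel CT mean was 4.93 times the SCI only mean in CPM, 9.83 times outside these loci and 93.4 times relative to all counts. Between growth factors and SCI only the ratio of means was 0.197 in CPM and 0.236 outside these loci, but 1.01 relative to all counts. Scaling by library totals moved the median of all tested genes to -2.37 (log2) between growth factors and hydrogel CT and to 3.96 between hydrogel CT and SCI only. On that scale Egfr stood at -6.48 (SE 1.75, edgeR adjusted p = 0.0369) and 6.52 (SE 1.53, edgeR adjusted p = 0.00157), past the threshold in both and farther from 0 than those medians. That fit called 7.94% of all tested genes between growth factors and hydrogel CT and 68.9% between hydrogel CT and SCI only, so the second call is shared by most genes. It called no member between growth factors and SCI only, against 7.69% of tested genes.

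Fgfr3, the FGF receptor among the members, had 56 reads in all HA libraries together. It had 0, 0 and 19 reads in the growth factor libraries (1685, 1687 and 1732), against 0, 1 and 5 reads in the hydrogel CT libraries (1724, 1759 and 1762). The SCI only libraries 9596, 9843, 9874 and 9935 had 0, 1, 9 and 21 reads. Reads came mainly from library 1732 of the growth factor group and from 9874 and 9935 of SCI only, and every group had a library at 0.

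Fgfr3 averaged 0.544 ± 0.942 CPM with growth factors (SD, n = 3) and 0.0284 ± 0.0328 CPM with hydrogel CT (n = 3), against 1.77 ± 2.76 CPM with SCI only (n = 4). Hydrogel CT had the lowest mean, where for Egfr it had the highest. The mean with growth factors was above it on all 3 scales, with a ratio of 19.2 in CPM, 10.3 outside the ribosomal RNA loci and 3.43 relative to all counts. Hydrogel CT was at 0.016, 0.0363 and 0.482 of the SCI only mean on the same scales. Fgfr3 was too sparse for the filter on low counts. Exact two-sided permutation tests over libraries gave p = 1 for growth factors against hydrogel CT, where 0.1 is the smallest possible, and p = 0.229 for hydrogel CT against SCI only, where it is 0.0571, and p = 0.743 for growth factors against SCI only. Without the filter, edgeR put hydrogel CT against SCI only at -5.48 (SE 2.32, adjusted p = 0.312). Fgfr2, another FGF receptor, had 0, 0 and 55 reads with growth factors and 4, 3 and 82 with hydrogel CT, against 1, 13, 57 and 1 with SCI only, and was uneven between libraries too.

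**Figure D2:**
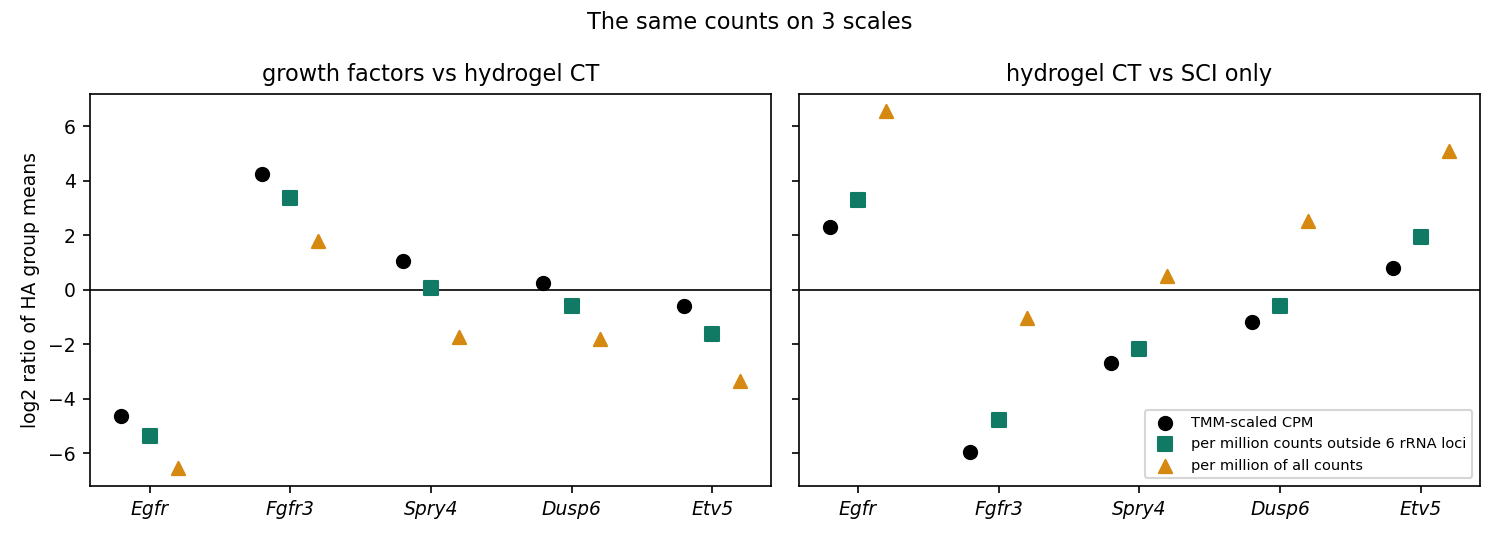
The vertical axis is the log2 ratio of HA group means for each gene, on the left for growth factors over hydrogel CT and on the right for hydrogel CT over SCI only. Circles are TMM-scaled CPM, squares are reads relative to counts outside 6 ribosomal RNA loci and triangles are reads relative to all counts. Egfr, Fgfr3 and Etv5 lie on the same side of 0 on all 3 scales in both panels, while Spry4 and Dusp6 cross it.

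Spry4, the Sprouty inhibitor, was found in 9 of 10 HA libraries, always with few reads. It had 4, 9 and 3 reads in the growth factor libraries (1685, 1687 and 1732), against 25, 34 and 6 reads in the hydrogel CT libraries (1724, 1759 and 1762). The SCI only libraries 9596, 9843, 9874 and 9935 had 77, 23, 12 and 0 reads. SCI only thus held both the highest and the lowest Spry4 library, and its range covers those of the other groups.

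Spry4 averaged 0.932 ± 1.18 CPM with growth factors (SD, n = 3) and 0.45 ± 0.331 CPM with hydrogel CT (n = 3), against 2.89 ± 2.66 CPM with SCI only (n = 4). Growth factors against hydrogel CT gave a log2 difference of 0.96 (SE 1.60, 95% interval -2.40 to 4.32, edgeR adjusted p = 0.824). The interval includes large differences either way, and the sign turned to -0.84 without growth factor library 1687, whose 9 reads make 2.3 CPM. Hydrogel CT against SCI only gave -2.69 (SE 1.59, 95% interval -6.02 to 0.64, edgeR adjusted p = 0.492), and growth factors against SCI only gave -1.73 (SE 1.56, 95% interval -5.01 to 1.56, edgeR adjusted p = 0.554). Scaled by library totals, growth factors against hydrogel CT turned to -1.76 and hydrogel CT against SCI only to 0.52, while the third comparison kept its sign.

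Dusp6, the ERK phosphatase, is the member that both fractions list. In HA it had 13, 0 and 14 reads in the growth factor libraries (1685, 1687 and 1732), against 34, 4 and 64 reads in the hydrogel CT libraries (1724, 1759 and 1762). The SCI only libraries 9596, 9843, 9874 and 9935 had 14, 9, 20 and 0 reads. The groups overlapped, and 1 library of growth factors and 1 of SCI only had no read.

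Dusp6 averaged 0.665 ± 0.611 CPM with growth factors (SD, n = 3) and 0.558 ± 0.411 CPM with hydrogel CT (n = 3), against 1.27 ± 0.988 CPM with SCI only (n = 4). The log2 differences were 0.31 for growth factors against hydrogel CT (SE 1.53, 95% interval -2.91 to 3.53, edgeR adjusted p = 0.952) and -1.20 for hydrogel CT against SCI only (SE 1.47, 95% interval -4.30 to 1.90, edgeR adjusted p = 0.756). Growth factors against SCI only gave -0.89 (SE 1.48, 95% interval -4.00 to 2.23, edgeR adjusted p = 0.774). The sign between growth factors and hydrogel CT turned without library 1732 (-0.34) or 1759 (-0.19). All 3 signs turned when libraries were scaled by their totals, to -1.78, 2.50 and 0.72.

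**Figure D3:**
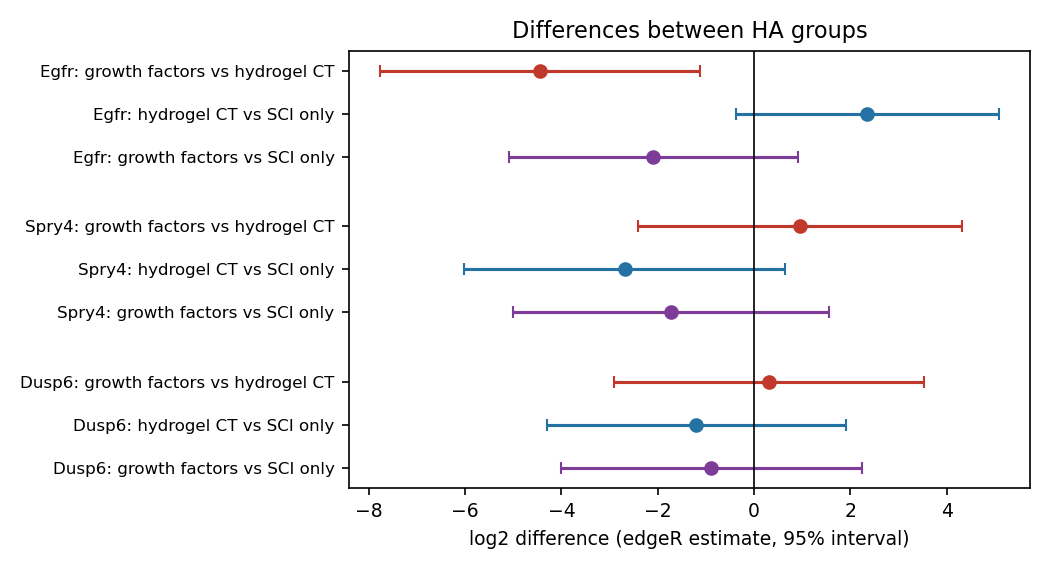
Points are edgeR log2 differences between HA groups on the horizontal axis and lines are 95% intervals, for the 3 members that passed the filter on low counts. The interval of Egfr between growth factors and hydrogel CT, -7.76 to -1.12, is the 1 that does not include 0.

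Etv5, the ETS transcription factor, had 28 reads in HA. It had 0, 1 and 1 reads in the growth factor libraries (1685, 1687 and 1732), against 15, 7 and 2 reads in the hydrogel CT libraries (1724, 1759 and 1762). The SCI only libraries 9596, 9843, 9874 and 9935 had 0, 0, 1 and 1 reads. Hydrogel CT thus held 24 of the 28 reads, and every hydrogel CT library had more reads than any other library. Those libraries also held 2844757 to 5799194 protein-coding counts without Lars2, against 282677 to 1523515 with growth factors and 202250 to 780264 with SCI only. How many genes share this ordering in reads was not counted.

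This ordering of Etv5 reads held relative to all counts, with hydrogel CT libraries at 0.159 to 1.38 and every other library at 0.126 or less in CPM without TMM. On that scale the median of all tested genes was -2.37 (log2) between growth factors and hydrogel CT and 3.96 between hydrogel CT and SCI only. The Etv5 ordering was not seen in TMM-scaled CPM, where means were 0.114 ± 0.13 with growth factors (SD, n = 3) and 0.17 ± 0.158 with hydrogel CT (n = 3), against 0.0984 ± 0.132 with SCI only (n = 4). In the growth factor libraries a count of 3 corresponds to 0.183 to 0.765 CPM and in those of SCI only to 0.224 to 0.837 CPM. The hydrogel CT levels, 0.0257 to 0.338 CPM, lay mostly below that, so a difference in Etv5 was not detectable at this depth on that scale. The growth factor mean was 0.668 of the hydrogel CT mean in CPM, 0.325 outside the ribosomal RNA loci and 0.0974 relative to all counts. The hydrogel CT mean was 1.73, 3.84 and 34.3 times the SCI only mean on these scales. Etv5 failed the filter on low counts, and exact two-sided permutation tests gave p = 0.6 for growth factors against hydrogel CT, p = 0.457 for hydrogel CT against SCI only and p = 1 for growth factors against SCI only.

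Set per kilobase of transcript, so that genes can be compared, Egfr had the highest mean level of the members in hydrogel CT, 0.539 CPM per kb, and the lowest with growth factors, 0.0215 CPM per kb. With growth factors the order of mean levels was Dusp6 (0.238), Spry4 (0.196), Fgfr3 (0.131), Etv5 (0.0286) and Egfr, and every neighbour in that order overlapped over libraries. With hydrogel CT, Egfr (0.311 to 0.85 CPM per kb) lay above every library of Dusp6 (0.0299 to 0.294), while Dusp6, Spry4, Etv5 and Fgfr3, last at a mean of 0.00684, each overlapped with the next. With SCI only the order of means was Spry4 (0.609), Dusp6 (0.454), Fgfr3 (0.427), Egfr (0.109) and Etv5 (0.0248), and every neighbour in that order overlapped.

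In FT, Dusp6 had 56 reads over 13 libraries. It had 2, 2, 1, 0 and 2 reads with growth factors (1645, 1685, 1687, 1729 and 1732), against 0, 10, 2 and 0 reads with hydrogel CT (1683, 1724, 1759 and 1762). SCI only had 22, 6, 9 and 0 reads (9596, 9843, 9874 and 9935). Because the hydrogel FT libraries are shallow, the 2 reads of library 1645 made 74.2 CPM and the 10 of library 1724 made 59.1 CPM.

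Dusp6 in FT averaged 22.3 ± 30.1 CPM with growth factors (SD, n = 5) and 16.3 ± 28.7 CPM with hydrogel CT (n = 4), against 12.3 ± 8.69 CPM with SCI only (n = 4). Every group held a library at 0, and the groups overlapped. Dusp6 failed the filter on low counts in FT, where 610 genes were tested. Exact two-sided permutation tests gave p = 0.524 for growth factors against hydrogel CT, p = 0.743 for hydrogel CT against SCI only and p = 0.873 for growth factors against SCI only. These belong to a family of 9 such tests over Fgfr3, Etv5 and Dusp6, in which every adjusted p was 1.

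Dusp6 was lower in HA than in FT in 7 of the 10 numbers that have a library of each kind. On a scaling shared by both fractions, the HA level against the FT level was 1.47 against 8.34 CPM in 1685, 0 against 7.13 in 1687 and 2.22 against 1.17 in 1732, all with growth factors. With hydrogel CT it was 1.36 against 32.8 CPM in 1724, 0.154 against 4.17 in 1759 and 1.53 against 0 in 1762. With SCI only it was 1.94 against 6.71 CPM in 9596, 3.53 against 5.38 in 9843, 4.24 against 7.64 in 9874 and 0 against 0 in 9935. HA was thus higher in 1732 and 1762, both fractions of 9935 had no read, and the direction was shared by the other numbers. Of those, the FT levels of 1685, 1687 and 1759 rested on 2, 1 and 2 reads, so that a single FT read made the 7.13 CPM of 1687. The share of all genes lower in HA in as many numbers was not counted.

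Over these numbers Dusp6 averaged 1.64 ± 1.43 CPM in HA and 7.33 ± 9.48 CPM in FT (SD, n = 10 each). HA against FT gave a log2 difference of -2.04 (SE 0.86, 95% interval -3.78 to -0.29) with an adjusted p of 0.0928 by edgeR, where 19.2% of 4747 genes were called. With the title number as a block it gave -1.94 (SE 0.95, edgeR adjusted p = 0.154). The call depended on the filter and the tool: filtering by fraction alone, which tests 3295 genes, gave -2.28 (SE 0.77, edgeR adjusted p = 0.0312), DESeq2 gave -2.43 (adjusted p = 0.00834), and library totals without TMM gave -3.62 (edgeR adjusted p = 0.00885). These fits called 20.6%, 22.5% and 23.4% of the genes they tested. Within the hydrogel numbers alone the difference was -2.81 (edgeR adjusted p = 0.147), within hydrogel CT -3.60 (0.144) and within growth factors -2.22 (0.550), and Dusp6 failed the filter within SCI only. Astrocyte markers ran the other way, with 10 of 11 tested higher in HA. So did oligodendrocyte progenitor markers, 7 of 7 called higher in HA, and oligodendrocyte markers, with 3 of 7 called higher and 0 lower. On the shared scaling and over the same 10 numbers, the 6 neuron markers with a row in both fractions summed to 32.8 to 279 CPM in HA (median 72.1), against 259 to 1370 CPM in FT (median 767), and 5 of 6 tested were lower in HA. Microglia and macrophage markers, 5 of 6 lower in HA, summed to 17.7 to 734 CPM in HA (median 132), against 67 to 6340 CPM in FT (median 1740). The neuron sum was lower in HA in 10 of 10 numbers and that of microglia and macrophages in 9. That of fibroblasts and pericytes was lower in 7, with 1 of 3 tested markers called lower in HA. The part of these cells in the Dusp6 difference was not tested. Only genes with a row in both fractions could be compared. At its share of HA counts outside the ribosomal RNA loci, Dusp6 would have held 10 FT reads, under the smallest listed total of 11. Its entry to the comparison thus took more FT reads than that share, so the listing favoured a level higher in FT.

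**Figure D4:**
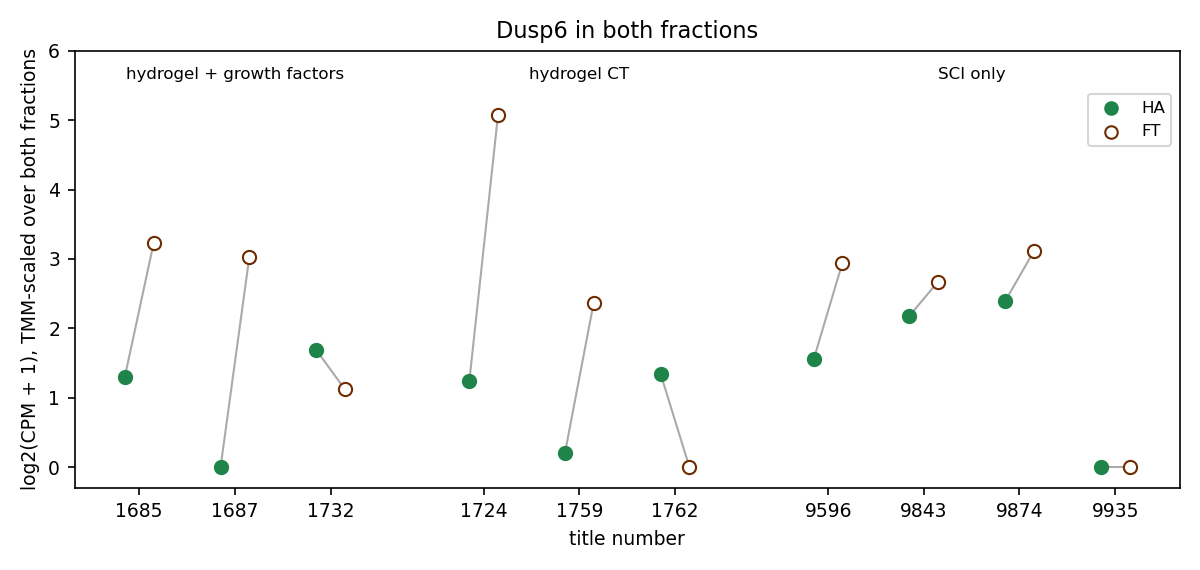
Filled dots are HA and open dots are FT libraries of the same title number on the horizontal axis, and the vertical axis is log2(CPM + 1) after TMM scaling over both fractions. Lines join the fractions of a number. HA lies lower in 7 numbers, higher in 1732 and 1762, and level with FT at 0 in 9935. The FT dots of 1685, 1687, 1732 and 1759 rest on 1 or 2 reads each.

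Egfr, Fgfr3, Spry4 and Etv5 had no FT row, and the smallest row total listed for FT was 11 reads. At the share each member had of HA counts outside the ribosomal RNA loci, the FT libraries would hold 12.2 reads of Egfr, 6.79 of Fgfr3 and 0.619 of Etv5, close to the smallest total listed for Egfr and below it for the other 2. For Spry4 this number was 23 reads, of which 22 fall on SCI only libraries, and for Dusp6 it was 10, against 56 observed. Whether Spry4 was below its HA share in FT was not tested.

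The other genes of the pathway, 73 in number by a list of receptors, ligands, adaptors and kinases, feedback inhibitors and ERK targets, were not called between HA groups by edgeR either. Of them 48 had an HA row and 32 were tested, and edgeR called none in any of the 3 HA comparisons, with 6, 4 and 4 at an unadjusted p under 0.05 between growth factors and hydrogel CT, between hydrogel CT and SCI only and between growth factors and SCI only. DESeq2 called 4, 1 and 1 of them in these comparisons, where it called 4.4%, 3.67% and 10.7% of all tested genes. The 4 were Junb and Nras, higher with growth factors than with hydrogel CT, and Spry2 and Dusp7, lower. Junb was also the 1 between hydrogel CT and SCI only, and Nras the 1 between growth factors and SCI only. Their median log2 difference was -0.28 between growth factors and hydrogel CT, 0.18 between hydrogel CT and SCI only and 0.23 between growth factors and SCI only, against -0.14, 0.27 and 0.12 over all tested genes. Among receptors, Erbb3, a partner of other EGF receptor family members, averaged 0.499 ± 0.237 CPM with growth factors and 1.44 ± 1.83 CPM with hydrogel CT (SD, n = 3 each), against 2.74 ± 1.25 CPM with SCI only (n = 4). Erbb4, Fgfr1 and Fgfr4 had no HA row.

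Among ligands, Hbegf, which encodes the EGF receptor ligand HB-EGF, averaged 29.3 ± 19.5 CPM with growth factors and 9.31 ± 0.541 CPM with hydrogel CT (SD, n = 3 each), against 9.33 ± 3.48 CPM with SCI only (n = 4). Its log2 difference between growth factors and hydrogel CT was 1.66 (SE 0.74, edgeR adjusted p = 0.349). Fgf2, a broadly acting FGF, stood at 2.18 in the same comparison (SE 1.15, edgeR adjusted p = 0.421) and at 1.14 without library 1687. Neither passed the threshold, Hbegf was 1.03 without library 1732, and with library totals both turned, to -0.48 for Hbegf and -0.50 for Fgf2. The GTPase Nras had 680, 101 and 1484 reads with growth factors and 843, 477 and 1113 with hydrogel CT, against 188, 89, 81 and 16 with SCI only. In CPM every growth factor library (25.8 to 127) lay above every other HA library (4.46 to 19). Over all tested genes, 18.4% did not overlap between growth factors and hydrogel CT and 14.2% between growth factors and SCI only. The Nras difference between growth factors and SCI only was 2.52 (SE 0.67, edgeR adjusted p = 0.0852). It passed by DESeq2 (adjusted p = 0.0127), by edgeR without library 1687 (2.94, adjusted p = 0.0331) and by edgeR with library totals (adjusted p = 0.0277), while without library 1732 it was 1.61. Between growth factors and hydrogel CT it was 2.17 (SE 0.73, edgeR adjusted p = 0.258), with an adjusted p of 0.0495 by DESeq2, and 1.21 without library 1732. With library totals that difference was -0.02. Among ERK targets, Junb, an AP-1 transcription factor, had 25, 5 and 30 reads with growth factors and 1 in each hydrogel CT library, against 16, 1, 7 and 35 with SCI only. Its edgeR differences, 6.25 between growth factors and hydrogel CT (SE 1.77, adjusted p = 0.250) and -6.95 between hydrogel CT and SCI only (SE 1.81, adjusted p = 0.143), rest on those single reads. The adjusted p by DESeq2 was 0.00204 and 5.96e-05, and with library totals the edgeR differences were 4.29 and -2.81.

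Feedback inhibitors other than the members, 10 tested, had a median log2 difference of -1.04 between growth factors and hydrogel CT, with 8 of 10 below 0, and of 1.73 between hydrogel CT and SCI only, with 8 of 10 above 0. With 1 library left out the first median ranged between -2.05 (without 1685) and -0.59 (without 1687), and the second between 1.12 (without 1762) and 2.17 (without 1759). Over all tested genes the medians were -0.14 and 0.27. Spry4 and Dusp6 had the opposite sign to these medians in both comparisons with TMM scaling, but the same sign with library totals, where the medians of the inhibitors were -3.02 and 5.64. Both comparisons share the hydrogel CT libraries. In the first, the sign of Spry4 turned without library 1687 and that of Dusp6 without 1732 or 1759. Between growth factors and SCI only the median of the inhibitors was -0.64, with 7 of 10 below 0. Spry4 (-1.73) and Dusp6 (-0.89) had the same sign there. Spred1, an inhibitor of Ras and RAF coupling, averaged 21.1 ± 16.6 CPM with growth factors and 38.2 ± 23.2 CPM with hydrogel CT (SD, n = 3 each), against 8.49 ± 3.22 CPM with SCI only (n = 4), and its difference between hydrogel CT and SCI only was 2.17 (SE 0.72, edgeR adjusted p = 0.230). Spry2, a close relative of Spry4, and the ERK phosphatase Dusp7 were called lower with growth factors than with hydrogel CT by DESeq2 and by edgeR with library totals, not by edgeR with TMM (-3.89, SE 1.15, edgeR adjusted p = 0.250 for Spry2, and -6.15, SE 2.02, edgeR adjusted p = 0.250 for Dusp7). Spry2 had 14, 5 and 7 reads with growth factors and 367, 109 and 2273 with hydrogel CT, against 49, 15, 23 and 28 with SCI only. Its reads were thus most numerous in every hydrogel CT library, but not its CPM. The hydrogel CT libraries also held the most protein-coding counts, and the share of all genes with this ordering in reads was not counted. The CPM of Spry2 stood at 0.853, 1.28 and 0.601 with growth factors and at 8.27, 2.28 and 29.2 with hydrogel CT, against 3.67, 2.89, 2.64 and 7.81 with SCI only. Library 1759 thus lay below all SCI only libraries. Without library 1762 the first difference of Spry2 was -2.56. Dusp7 had 3, 0 and 6 reads with growth factors and 2304, 2 and 357 with hydrogel CT, against 113, 0, 34 and 1 with SCI only. Its hydrogel CT library 1759, at 0.0418 CPM, lay below growth factor libraries 1685 (0.183) and 1732 (0.515). Without library 1724 the Dusp7 difference was -3.18. Errfi1, whose product binds and inhibits the EGF receptor, was picked out, like Junb, Spry2 and Dusp7, after its values were seen. It had 19, 0 and 6 reads with growth factors and 77, 60 and 52 with hydrogel CT, against 1, 0, 0 and 0 with SCI only. Its differences were -1.04 between growth factors and hydrogel CT (SE 1.39, edgeR adjusted p = 0.772) and 5.19 between hydrogel CT and SCI only (SE 1.67, edgeR adjusted p = 0.211). The second rests on the 1 SCI only read, in library 9596, and was 7.90 without that library. The first was -2.05 without library 1685 and -0.54 without library 1687.

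**Figure D5:**
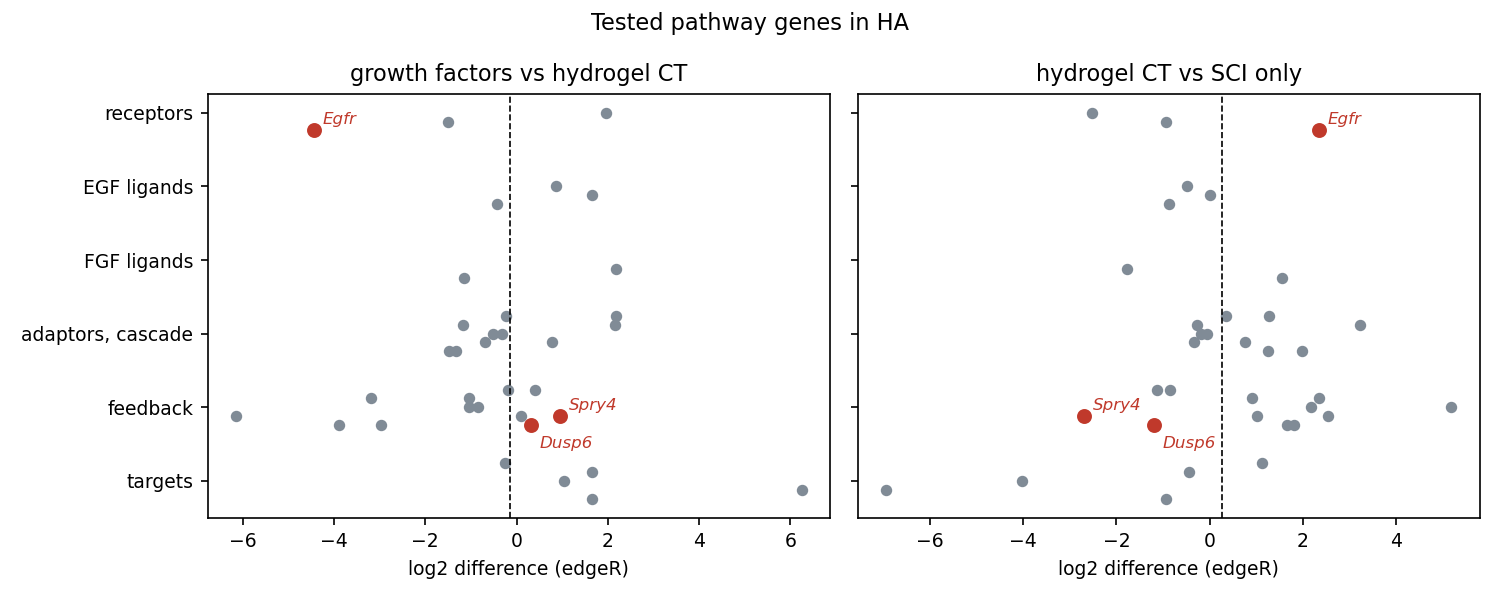
Each dot is a pathway gene tested in HA, placed by its edgeR log2 difference on the horizontal axis and by its list on the vertical axis, for growth factors against hydrogel CT on the left and hydrogel CT against SCI only on the right. The members are red and named, and the dashed line is the median of all tested genes. Egfr lies far from that line in both panels, and Spry4 and Dusp6, in this TMM-scaled fit, lie across it from most other feedback inhibitors. The panels share the hydrogel CT libraries, and growth factors against SCI only is not shown.

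Between fractions, 22 of the other pathway genes were tested, 4 were higher in HA and none lower. That is 18.2% called, close to the 19.2% over all tested genes (12.7% called higher and 6.51% called lower). The median over all tested genes was 0.30. Hbegf was higher by a log2 difference of 2.73 (SE 0.60, edgeR adjusted p = 0.000917) and Gab1, an adaptor of receptor kinases, by 1.89 (SE 0.42, edgeR adjusted p = 0.000968). Ccnd1, the cyclin that ERK induces, was higher by 1.84 (SE 0.61, edgeR adjusted p = 0.0301) and Spred1 by 1.36 (SE 0.47, edgeR adjusted p = 0.0357). The calls of Hbegf and Gab1 held without any 1 of the 10 numbers, while that of Ccnd1 was lost in 4 of these fits and that of Spred1 in 5. With library totals, which moved the median of all genes to -1.44, none of the 4 was called and Spred1 turned to -0.25. Dusp6, at -2.04, had the opposite sign to these genes with TMM scaling.

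The genes whose HA pattern was most like that of a member were found from Pearson's r of log2(CPM + 1) over 10 HA libraries, among 6653 genes and as a description. For Egfr they included Necap1 (r = 0.954) and Zscan29 (0.949). Zscan29 had 1, 0 and 1 reads with growth factors and 51, 85 and 335 with hydrogel CT, against 7, 1, 0 and 3 with SCI only, the same shape as Egfr. For Spry4 they were Slc35e3 (0.934), BC026585 (0.894) and Mical3 (0.890), and for Dusp6 they were Etf1 (0.906), Tln1 (0.887) and Dock3 (0.878). Among themselves the members did not move as a block, with r from -0.565 between Dusp6 and Etv5 to 0.319 between Fgfr3 and Etv5. The points share library depth and scaling, so sparse genes can be alike through these alone.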

How the data were processed

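RNA of 10 HA and 13 FT libraries was measured. Per the labels' protocols, cDNA was amplified with a NuGEN Ovation kit and sequenced from both ends. The build mm10 and the tools CASAVA 1.8.2 and edgeR are named in the submitters' processing notes. Aligner, counter and strand setting: not given in the sources used here. The authors deposited whole-number counts per transcript, 10389 rows in HA and 5001 in FT, with no row total under 10 in HA or 11 in FT. Per the file headers, they also deposited edgeR log2 fold changes, p-values and false discovery rates. A further 45 columns of per-sample values were not used.

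Counts were summed per gene symbol. Left out were 136 HA and 35 FT rows that name no gene, which held at most 0.319% of a library's counts. edgeR 4.0.16 in R 4.3.3 (quasi-likelihood, TMM, filterByExpr with a minimum count of 10) tested all 3 groups of a fraction in 1 fit, two-sided, with Benjamini-Hochberg adjustment and a threshold of 0.05. HA and FT were compared over 10 shared title numbers and 4781 genes with treatment as a covariate. Exact permutation tests used log2(CPM + 1), with a pseudocount of 1. DESeq2 1.42.0, other scalings, filters and left-out libraries were the alternatives.

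In data simulated from the 6654 genes of growth factors against hydrogel CT with 200 genes changed, edgeR recovered 0% at 4-fold and 48.5% at 32-fold. Floors of 3 counts cover counting error only. The labels do not say that title numbers are separate animals, and p-values then measure only the spread between libraries. That a number pairs HA with FT was inferred from the study's description, in which both come from the same tissue, and correlations of paired deviations were 0.00183 to 0.093. Positions are from GENCODE M21 (mm10). Named genes were the members, pathway genes past the threshold or of highest HA level per list, and the 3 most alike per tested member. A gene among those most like Egfr is not reported here. The members and lists were chosen with earlier results of these data known.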

Additional observations from a re-analysis of the deposited data

Results flagged for a closer look

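Dusp6 in FT had a library far from the others in both hydrogel groups. With growth factors, library 1645 stood at 74.2 CPM from 2 reads, and the other libraries of that group at 18.1 CPM or less. With hydrogel CT, library 1724 stood at 59.1 CPM from 10 reads, and the others at 6.02 CPM or less. Of 8 groups examined these were the ones in which a gap to the nearest library was this large. The rule is set so that chance flags about 1 in 20 groups, if a read is worth about the same in every library. That did not hold here, so the rate does not apply to these values. Libraries 1685 and 1732 of the growth factor group had the same 2 reads as 1645. One read in an FT library of the hydrogel groups is worth 1.34 to 37.1 CPM.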

How the results depend on the processing

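No member was called between HA groups by edgeR, but DESeq2 called 1 member (Egfr) between growth factors and hydrogel CT, and library totals without TMM, an alternative chosen after seeing the data, called 1 (Egfr) there and 1 (Egfr) between hydrogel CT and SCI only, where it called 7.94% and 68.9% of all tested genes. Between HA and FT, 1 member (Dusp6) was called by DESeq2, with library totals without TMM and with a filter by fraction alone, also chosen after seeing the data. With library totals the sign turned for Spry4 (-1.76) and Dusp6 (-1.78) between growth factors and hydrogel CT, for Spry4 (0.52) and Dusp6 (2.50) between hydrogel CT and SCI only, and for Egfr (0.0393) and Dusp6 (0.72) between growth factors and SCI only. This scaling moved the median log2 difference of all tested genes from -0.14 to -2.37, from 0.27 to 3.96 and from 0.12 to 1.57 in these comparisons. Leaving out 1 library at a time called 0 members in every comparison. Egfr then ranged from -5.59 to -3.96 between growth factors and hydrogel CT, from 1.87 to 3.51 between hydrogel CT and SCI only and from -3.21 to -0.94 between growth factors and SCI only. Between growth factors and hydrogel CT, Spry4 ranged from -0.84 to 1.45 and Dusp6 from -0.34 to 0.83, with Dusp6 at -0.19 without library 1759, and Dusp6 between HA and FT from -2.30 to -1.38. The replicate block changed no call of a member (Dusp6 -1.94). Over all genes, calls between growth factors and hydrogel CT were 6 by edgeR, 0 with DESeq2 size factors and 293 by DESeq2. Those between hydrogel CT and SCI only were 13 and 244, and those between growth factors and SCI only 29 and 715. The cause was not tested. Egfr could not be tested between growth factors and SCI only when only these groups were fitted, and DESeq2 gave no adjusted p for Dusp6 between hydrogel CT and SCI only. Depth limits Fgfr3 and Etv5 in HA and every member in FT.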
